A study of Mus musculus with 9 samples.

Results

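The clones compared here are derivatives of ROC6, a mouse oral squamous cell line, in which Csmd3 was knocked out with guide 1 or with guide 2. Each knockout is represented by 3 libraries of polyadenylated RNA, and 3 libraries of ROC6 without the knockout served as the control. All groups were grown in the same medium with serum, and no treatment, time course or animal is named in the labels. The series describes the knockouts as clone 1 and clone 2, so each guide appears to be represented by 1 clone, and guide and clone cannot be told apart. The members are the genes whose symbol occurs once in the expression table and whose mean over the 6 knockout libraries was 1 FPKM or more. FPKM is the number of fragments of a gene relative to its length and to all fragments mapped in a library. This left 6915 genes of 15446 uniquely named genes and 15620 rows. The genes nearest the threshold were Ctsw, just inside with a mean of 1.00 FPKM, and Pde4d, just outside with a mean of 0.998 FPKM. The filter pools both clones, so a gene near 0 in one clone can reach it through the clone where it is high. Ctsw reached it through guide 1, at a mean of 1.89 FPKM with guide 1 and 0.112 with guide 2.

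Csmd3 encodes a large membrane protein with CUB and sushi domains. Squamous epithelial cells are held together by desmosomes and cadherin junctions over a keratin network, and cultured tumour cells can combine these with contractile and mesenchymal genes. A clone is grown from a single cell, and clones of a line can differ from each other in many genes.

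The labels were not checked against the targeted gene, since Csmd3 was not analysed here. Of 21 squamous epithelial markers 8 had a row, and Krt5, Krt14, Trp63, Cdh1 and Epcam were not analysed here. The 8 summed to between 119 and 129 FPKM with guide 1, between 95.6 and 99.9 with guide 2 and between 80.2 and 88.5 in the control, most of it from Perp, a desmosomal membrane protein. Pearson's r of log2 values across genes, which are not independent replicates, was 0.993 within guide 1, 0.990 to 0.993 within guide 2 and 0.944 to 0.948 between the clones. Summed FPKM per library was 162625 to 168620, and the read total behind it is unknown. The labels do not say whether the 3 libraries of a clone are separate cultures. The p-values therefore reflect the spread of these libraries alone, and that spread may be technical.

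The test was limma, which fits a linear model to each gene and draws on all genes for the spread. Between the clones, 3779 of the 6915 genes (54.6%) passed at an adjusted p under 0.05. Of these, 2154 (31.1%) were higher with guide 2 and 1625 (23.5%) lower. Differences are given as guide 2 minus guide 1 on the log2(FPKM + 1) scale, which understates the difference of genes with low values. The median over all tested genes was 0.03, with quartiles of -0.18 and 0.26. The share of passing genes that were higher with guide 2 was 57.0%, and it was 52.1% after trimmed mean rescaling and 52.9% after quantile normalization. At 1 log2 unit or more the balance was the other way, with 161 genes (2.33%) higher and 195 (2.82%) lower. All 3 libraries of one clone lay beyond all 3 of the other in 4257 genes (61.6%). This was a condition for the genes named by rule below, so it does not set them apart.

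**Figure D1:**
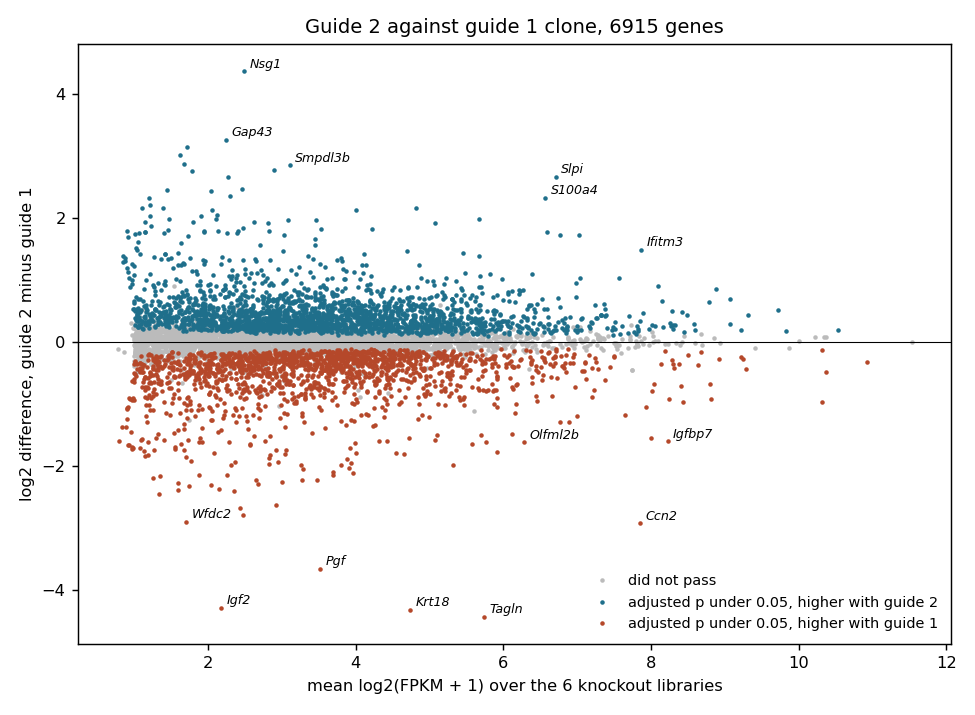
Difference between the clones (y axis, log2 units, guide 2 minus guide 1) against the mean level over the 6 knockout libraries (x axis, log2(FPKM + 1)) for the 6915 tested genes, with genes at an adjusted p under 0.05 in colour. Tagln, Krt18 and Igf2 lie lowest, between -4.43 and -4.29, and Nsg1 lies highest at 4.36.

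In all 6915 tested genes the clones shared a side of the control by their means. The same held for 15441 of the 15446 uniquely named rows, so genes in which the clones lie on opposite sides of the control are missing from these rows. Of the 356 genes that differed by 1 log2 unit or more, guide 1 lay farther from the control in 219 and guide 2 in 137. Both clones were above the control with guide 1 highest in 137 of them, such as Tagln, and with guide 2 highest in 79, such as S100a4. Both were below the control with guide 1 lowest in 82, such as Nsg1, and with guide 2 lowest in 58, such as Igf2.

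The genes most strongly higher with guide 1 joined a contractile protein, a simple epithelial keratin and secreted growth factors. Tagln, which encodes the actin-binding protein transgelin of smooth muscle, stood at 253, 244 and 239.9 FPKM in the guide 1 libraries, 10.5, 10.7 and 10.1 in the guide 2 libraries and 8.88, 8.47 and 10.9 in the controls. Only the guide 1 libraries were high, and those of guide 2 overlapped the control range. The difference was -4.43 log2 units (SE 0.08, limma adjusted p = 1.3e-10). Krt18, a keratin of simple epithelia, stood at 116, 126 and 114 FPKM in the guide 1 libraries, 6.06, 4.58 and 4.39 in the guide 2 libraries and 4.33, 3.5 and 3.27 in the controls. The groups did not overlap between clones, and the difference was -4.33 (SE 0.11, limma adjusted p = 1.8e-09). Reads of Krt18 can also be shared with its processed pseudogenes.

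Igf2, expressed from the paternal allele as a growth factor of the fetus, was measured at 18.8, 18 and 20.2 FPKM in the guide 1 libraries, 0.0374, 0 and 0.0244 in the guide 2 libraries and 45.7, 46 and 38.2 in the controls. It was thus lower than the control in both clones, and near or at 0 only with guide 2. The difference was -4.29 (SE 0.08, limma adjusted p = 1.3e-10), and reads of an overlapping antisense transcript cannot be told apart from it where strand use in counting is not stated. Pgf, placental growth factor of the VEGF family, stood at 40, 40.1 and 39.4 FPKM in the guide 1 libraries, 2.37, 1.8 and 2.54 in the guide 2 libraries and 0.509, 0.494 and 0.346 in the controls. All guide 1 libraries were far above the others, and the guide 2 libraries were above the control, with a difference of -3.66 (SE 0.09, limma adjusted p = 1.8e-09). Ccn2, a matricellular protein, stood at 603, 619 and 683 FPKM in the guide 1 libraries, 80.8, 80.2 and 87 in the guide 2 libraries and 56.1, 51.2 and 72.3 in the controls. Here too the clones did not overlap, with a difference of -2.92 (SE 0.11, limma adjusted p = 1.2e-08).

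The others among the 15 largest differences in this direction lay between -2.90 and -2.30. Wfdc2, a secreted protein of the whey acidic family, stood at 9.35, 7.26 and 7.21 FPKM with guide 1 and 0.362, 0.0779 and 0.151 with guide 2, and at 8.37, 10.8 and 10.8 in the control, which overlapped guide 1. B3galnt1, a glycosyltransferase, stood at 8.02, 8.33 and 8.17 FPKM with guide 1 and 0.766, 0.716 and 1.09 with guide 2, both below the control at 24.9, 25.4 and 22.5. For the remaining 8 genes both clones were above the control mean. These were Slco4a1, an organic anion transporter, Rnf128, a membrane-bound ubiquitin ligase, Krt80, an epithelial keratin, Pla1a, a phospholipase, Mmp10, a stromelysin, Mycl, a MYC family factor, Cdh6, a cadherin, and Ccl2, a monocyte chemokine. Slco4a1 was listed at 0 in 2 control libraries and stood at 13, 13.6 and 14.4 FPKM with guide 1 and 1.07, 1.07 and 1.19 with guide 2. Among genes with 100 FPKM or more in the higher clone, the largest after Tagln, Krt18 and Ccn2 were Lbh, a transcriptional cofactor, at -1.78, Olfml2b, a matrix protein, at -1.62, and Igfbp7 at -1.61. For Igfbp7, a secreted binding protein, the mean was 521 ± 25.4 FPKM with guide 1 and 170.5 ± 2.41 with guide 2 (SD, n = 3).

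The genes most strongly higher with guide 2 included neuronal, matrix and secreted genes. Nsg1, an endosomal protein of neurons, stood at 0.316, 0.301 and 0.120 FPKM in the guide 1 libraries, 24.3, 24.6 and 24.6 in the guide 2 libraries and 153, 146 and 133 in the controls. The guide 1 libraries were near 0 and those of guide 2 lay between guide 1 and the control, with a difference of 4.36 (SE 0.07, limma adjusted p = 1.3e-10). Gap43, a growth cone protein, stood at 0.457, 0.507 and 0.639 FPKM in the guide 1 libraries, 13.7, 13.4 and 13.9 in the guide 2 libraries and 0.607, 0.222 and 0.233 in the controls. Only guide 2 was high, and guide 1 overlapped the control range, with a difference of 3.26 (SE 0.10, limma adjusted p = 7e-09). Tnn, a tenascin of the matrix, stood at 0.105, 0.0842 and 0.117 FPKM in the guide 1 libraries, 7.42, 9.37 and 9.52 in the guide 2 libraries and 9.18, 9.11 and 9.47 in the controls. Only guide 1 was low, and guide 2 overlapped the control, with a difference of 3.14 (SE 0.08, limma adjusted p = 1.9e-09).

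Slpi, a secreted inhibitor of leukocyte proteases, stood at 44.1, 43.1 and 35.2 FPKM in the guide 1 libraries, 295, 257 and 238 in the guide 2 libraries and 1445, 1479 and 1272 in the controls. Both clones were below the control, guide 1 more so, and they differed by 2.66 (SE 0.10, limma adjusted p = 1.6e-08). S100a4, a small calcium-binding protein linked to cell motility, stood at 45.4, 39.5 and 39.7 FPKM in the guide 1 libraries, 256, 202 and 183 in the guide 2 libraries and 1.21, 2.85 and 3.21 in the controls. Both clones were above the control, guide 2 more so, and they differed by 2.32 (SE 0.21, limma adjusted p = 7.6e-06). Fgf10, a growth factor of mesenchyme that acts on epithelium, stood at 0.240, 0.234 and 0.0856 FPKM in the guide 1 libraries, 7.22, 8.06 and 7.65 in the guide 2 libraries and 0.148, 0.146 and 0.129 in the controls. Fgf10 was high only with guide 2, with a difference of 2.87 (SE 0.08, limma adjusted p = 2.3e-09).

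The other 9 of the 15 largest in this direction lay between 2.34 and 3.02. Mrgprf, an orphan receptor, Il33, an alarmin cytokine, Ogn, a small proteoglycan, and Aldh3a1, an aldehyde dehydrogenase, were highest with guide 2. Mrgprf stood at 0.158, 0.0506 and 0.0268 FPKM with guide 1 and 7.45, 8.69 and 7.06 with guide 2, Il33 at 0.318, 0.459 and 0.231 FPKM with guide 1 and 7.63, 9.14 and 7.21 with guide 2 and Ogn at 1.02, 0.871 and 0.871 FPKM with guide 1 and 11.1, 10.8 and 11.3 with guide 2. Hlf, a PAR leucine zipper factor, Smpdl3b, a phosphodiesterase of membrane lipids, Kcnk2, a potassium channel, Fgf23, a hormone of phosphate balance, and Cxcl15, a chemokine, were lowest with guide 1, and their means were below the control in both clones. Among abundant genes, the largest after Slpi and S100a4 were Aqp5, a water channel, at 1.77, Il1rl1, the receptor of Il33, at 1.72, Eno3, the muscle form of enolase, at 1.71, and Ifitm3 at 1.48. Il1rl1 stood at 72.9, 70 and 70.3 FPKM in the guide 1 libraries, 228, 237 and 243 in the guide 2 libraries and 6.18, 6.47 and 6.49 in the controls, so the receptor and its ligand Il33 were both higher with guide 2. Their libraries did not overlap between the clones, as the naming rule required.

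**Figure D2:**
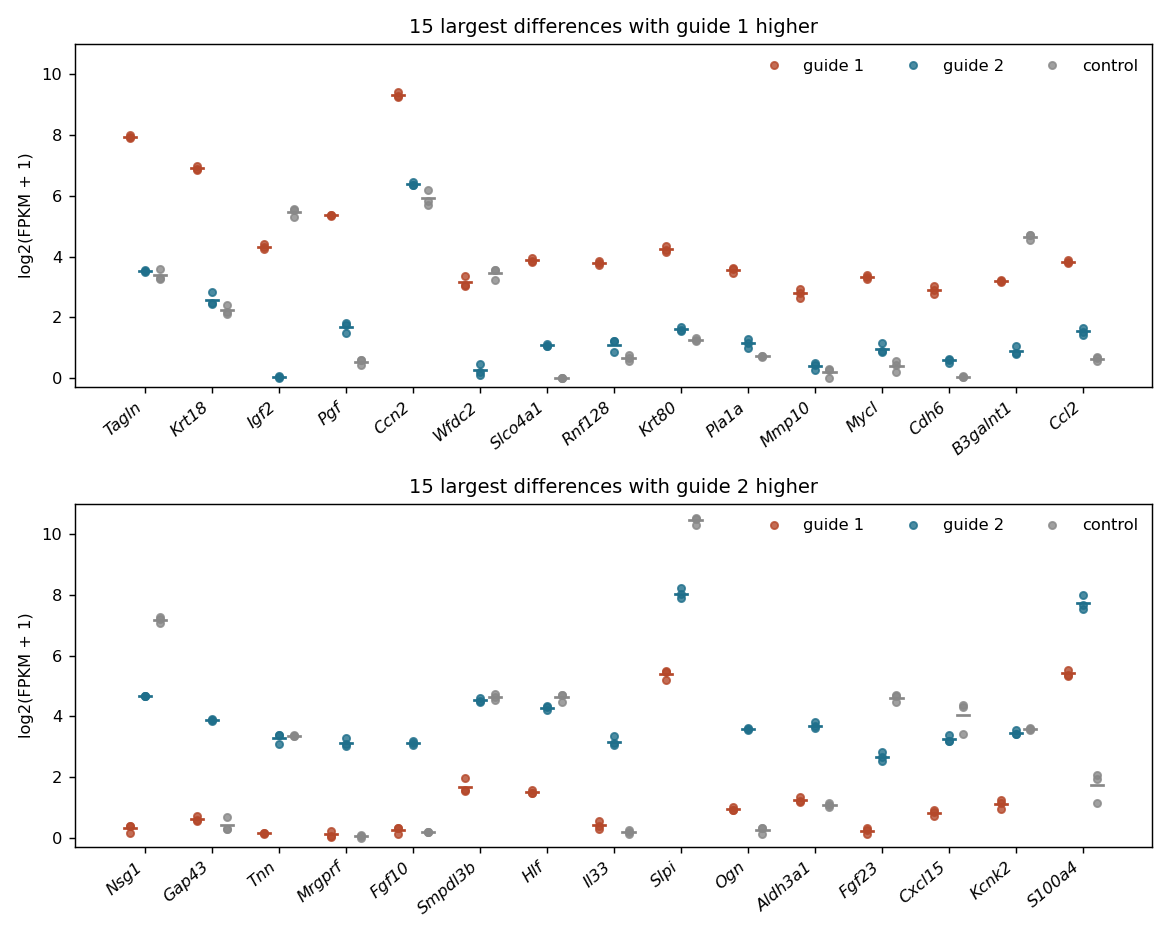
Levels (y axis, log2(FPKM + 1)) of the 15 genes with the largest difference in each direction, with a point for each of the 3 libraries of guide 1, guide 2 and control and a bar at their mean. Libraries of a clone lie close together, and the clones do not overlap for any of the 30 genes shown, as the rule that chose them required.

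Most of the contractile genes that passed were lower with guide 2. The counts of the lists below stand beside 31.1% higher and 23.5% lower of all tested genes. In the smooth muscle list, of which 14 of 17 genes had a row, 1 of 11 tested genes were higher with guide 2 and 6 lower, with a median of -0.12 against 0.03 over all genes. The single higher call was lost after quantile normalization, after trimmed mean rescaling and with a constant prior variance. It was also lost without guide 1 library 1 or 2, guide 2 library 2 or 3 or control library 1, and the count was 2 without control library 2 or 3. Besides Tagln, Cnn1, calponin, stood at 192, 195 and 192 FPKM in the guide 1 libraries, 82.8, 84.3 and 83 in the guide 2 libraries and 199.7, 200.4 and 196 in the controls. Guide 1 was close to the control and guide 2 was below it, with a difference of -1.20 (SE 0.03, limma adjusted p = 3.2e-09). Acta2, smooth muscle actin, stood at 1733, 1787 and 1807 FPKM in the guide 1 libraries, 912, 915 and 895 in the guide 2 libraries and 209, 207 and 215 in the controls, all libraries of guide 1 being above all of guide 2 (difference -0.97). Lmod1, a leiomodin that nucleates actin filaments, differed by -0.92. Reads of Acta2 can be shared with other actins of near-identical sequence. The 7 smooth muscle and pericyte markers with a row, of 12, summed to 2190 to 2251 FPKM with guide 1, 993 to 1017 with guide 2 and 417 to 422 in the control, and Myh11, the defining myosin of smooth muscle, reached at most 0.0501 FPKM in a knockout library. In bulk RNA, fewer cells of a type and less RNA per cell cannot be told apart.

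In the list of actin cytoskeleton and focal adhesion genes, 10 of 34 tested genes were higher with guide 2 and 18 lower, with a median of -0.20. The higher share was near the 31.1% of all tested genes, and 23.5% of all were lower. Fhl1, a LIM protein of muscle and stress fibres, stood at 308, 284 and 307 FPKM with guide 1 and 131, 129 and 135 with guide 2 and differed by -1.18 (SE 0.07, limma adjusted p = 5.5e-07). Csrp1, another LIM protein, differed by -0.98 and Mrtfb, a coactivator of serum response factor, by -0.92. Mrtfb stood at 6.61, 6.67 and 6.81 FPKM with guide 1 and 2.45, 4.23 and 2.69 with guide 2, with guide 2 library 2 above the other libraries of its clone.

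The CArG box, the sequence that serum response factor binds, was looked for on both strands of the RefSeq GRCm38.p6 promoter windows, from 250 bases before the start to 50 after it. It was present in 7 of the 29 tested actin and focal adhesion genes with a window, in 1 of 8 smooth muscle genes, and in 90 of 4937 tested genes (1.82%). Over all windows the share was 1.63%. The actin list was drawn up around genes held to depend on serum response factor, so its share follows from that choice. That share does not bear on the difference between the clones. Of the genes lower with guide 2 by 1 log2 unit or more, 7 of 137 held a match, and of those higher by as much, 1 of 125. A match is a description of letters and not of binding. The 250 bases before the start are shown for the 3 of the 7 with the largest differences, at -1.18 (Fhl1), -0.78 (Fhl2, another LIM protein) and -0.68 (Cnn2, a calponin), with the match in capitals. The windows are chrX:56779433-56779682 on the plus strand for Fhl1, chr10:79988350-79988599 on the plus strand for Cnn2, and chr1:43163962-43164211 on the minus strand for 1 of the starts of Fhl2. The matches begin 102, 56 and 31 bases before the start.
Fhl1: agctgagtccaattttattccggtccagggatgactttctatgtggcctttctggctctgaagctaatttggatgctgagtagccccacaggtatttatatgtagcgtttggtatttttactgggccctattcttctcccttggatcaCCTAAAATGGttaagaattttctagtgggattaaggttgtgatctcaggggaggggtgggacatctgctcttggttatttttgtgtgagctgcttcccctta
Cnn2: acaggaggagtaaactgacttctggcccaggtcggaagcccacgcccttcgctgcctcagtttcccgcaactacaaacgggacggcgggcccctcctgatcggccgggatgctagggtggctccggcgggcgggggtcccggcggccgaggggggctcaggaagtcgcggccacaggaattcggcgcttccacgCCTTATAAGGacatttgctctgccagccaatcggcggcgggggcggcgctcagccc
Fhl2: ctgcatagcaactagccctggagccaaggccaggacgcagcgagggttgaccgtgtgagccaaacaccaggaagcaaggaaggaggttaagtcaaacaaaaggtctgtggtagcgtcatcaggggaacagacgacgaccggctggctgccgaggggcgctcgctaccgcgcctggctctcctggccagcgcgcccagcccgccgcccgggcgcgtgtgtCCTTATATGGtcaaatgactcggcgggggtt
Lima1, Srf and Vcl also hold the match and were lower with guide 2, at -0.46, -0.24 and -0.22. The match was not tied to the direction in every gene, since Actg1, a cytoplasmic actin that also holds it, was higher with guide 2 by 0.20. The 1 smooth muscle gene with a match was Myl9, a myosin light chain, which did not pass (difference 0.18).

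Most junction and adhesion genes that passed were also lower with guide 2, beside 31.1% higher and 23.5% lower of all tested genes. In the desmosome and hemidesmosome list, of which 13 of 21 genes had a row, 1 of 8 tested genes were higher with guide 2 and 7 lower, with a median of -0.59. Itga6, an integrin subunit of hemidesmosomes, stood at 9.79, 9.07 and 9.61 FPKM in the guide 1 libraries, 2.1, 2.31 and 2.62 in the guide 2 libraries and 2.21, 2.21 and 2.27 in the controls. Guide 1 was high and guide 2 overlapped the control, with a difference of -1.65 (SE 0.07, limma adjusted p = 2.2e-08). Itgb4, the partner of Itga6 in hemidesmosomes, was too low to be tested and went the other way. Its values were 0.259, 0.355 and 0.312 FPKM with guide 1 and 0.519, 0.696 and 0.622 with guide 2. Jup, plakoglobin, differed by -1.28 and Pkp2, a plakophilin of the desmosomal plaque, by -0.99. The exception among the tested genes was Pkp1, another plakophilin, at 4.26, 4.17 and 4.66 FPKM with guide 1 and 8.8, 9.11 and 9.39 with guide 2. Its difference was 0.92, so Pkp1 was higher and Pkp2 lower with guide 2. Among cadherin and tight junction genes 1 of 8 tested genes were higher with guide 2 and 4 lower. Among integrins and other adhesion receptors 8 of 24 tested genes were higher with guide 2 and 11 lower (median -0.07), including Sdc3, a syndecan, at -1.99, Tspan17, a tetraspanin, at -2.05, Itga3, a laminin receptor subunit, at -0.78 and Itgb5 at -0.73.

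Matrix genes went both ways and by large amounts. Among all tested genes, 31.1% were higher with guide 2 and 23.5% lower. In the matrix list 15 of 37 tested genes were higher with guide 2 and 16 lower, with a median of -0.06 and a range from -2.92 to 3.14. Vcan, a large proteoglycan of loose matrix, stood at 0.828, 0.914 and 1.23 FPKM in the guide 1 libraries, 7.04, 8.29 and 7.72 in the guide 2 libraries and 0.359, 0.416 and 0.466 in the controls, high only with guide 2 (difference 2.13). Lama5, a laminin chain of basement membranes, stood at 27.3, 34.7 and 32.9 FPKM in the guide 1 libraries, 5.76, 6.87 and 6.9 in the guide 2 libraries and 1.08, 1.14 and 1.09 in the controls, highest with guide 1 (difference -2.12). None of the libraries overlapped between the clones in either gene, which was a condition for naming them. Postn, a matricellular protein of fibroblasts, differed by 1.76. Beside it, 3 of 15 fibroblast markers were tested, the 4 with a row summed to 32.1 to 34.96 FPKM with guide 1 and 34.0 to 36.9 with guide 2, and most of the sum came from Prrx1. Col1a2, a collagen chain of fibroblasts that was too low to be tested, stood at 0.0142 to 0.0615 FPKM with guide 1 and 0.736 to 0.875 with guide 2, higher with guide 2 as Postn was. Of the 3 tested fibroblast markers 1 was higher with guide 2, 1 did not pass and 1, Twist2, was lower, at -0.62. The part of fibroblasts in these differences was not tested. Among proteases and their inhibitors 9 of 22 tested genes were higher with guide 2 and 8 lower, and the median of 0.09 and the mean of -0.05 differed in sign. Plau, the urokinase plasminogen activator, was lower with guide 2, at -1.62 log2 units, and Htra1, a secreted serine protease, was higher by 1.18. Among mesenchymal transition factors 3 of 13 tested genes were higher with guide 2 and 5 lower, with Snai1, the transcription factor Snail, higher by 1.01, and Twist2 at -0.62.

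Among signalling genes, the list of TGF-beta and BMP pathway genes leaned to guide 1. Of these, 3 of 22 tested genes were higher with guide 2 and 16 lower, beside 31.1% and 23.5% of all tested genes. The median was -0.36. The Id genes, BMP targets that block basic helix-loop-helix factors, did not move together. Id2 stood at 19.7, 16.2 and 18.2 FPKM with guide 1 and 3.96, 3.4 and 4.03 with guide 2 (difference -1.99) and Id3 at 177, 161 and 171 FPKM with guide 1 and 71, 67.1 and 67.2 with guide 2 (difference -1.30). Id4 was the reverse, at 16, 12.8 and 15.1 FPKM with guide 1 and 42.2, 41.4 and 42.7 with guide 2 (difference 1.47). Guide 1 was close to the control for Id2 and Id3, at 19.3, 19.3 and 21.2 and 190.0, 183 and 189.5 FPKM in the control, while guide 2 was close to it for Id4, at 41.8, 42.1 and 51. In the Notch list 2 of 8 tested genes were higher with guide 2 and 5 lower, with a median of -0.60. Hes1, the Notch target repressor, stood at 59.9, 55.5 and 56.3 FPKM in the guide 1 libraries, 19.8, 16.3 and 19.5 in the guide 2 libraries and 7.25, 8.2 and 12 in the controls, in the order guide 1, guide 2, control without overlap (difference -1.58). Of the Wnt genes 7 of 15 tested genes were higher with guide 2 and 3 lower, with a median of 0.14. Among them, Lgr4, an R-spondin receptor, was lower with guide 2, at -1.62, and Sfrp1, a secreted Wnt antagonist, higher by 1.02. Lgr4 and Sfrp1 were below the control in each clone.

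Growth factor systems were likewise split, beside 31.1% higher and 23.5% lower of all tested genes. In the IGF axis 3 of 7 tested genes were higher with guide 2 and 3 lower, and the median of 0.12 and the mean of -0.65, which Igf2 lowers, differed in sign. Among angiogenic factors 3 of 6 tested genes were higher with guide 2 and 3 lower, with Vegfa, the main endothelial growth factor, at 37.7, 39.5 and 42.5 FPKM with guide 1 and 18.5, 19.6 and 20.3 with guide 2 (difference -1.0) beside Pgf, and Angptl2, an angiopoietin-like protein, higher by 0.54. The median of 0.09 and the mean of -0.44 differed in sign. Vegfa is also a hypoxia gene, and in that list 1 of 9 tested genes were higher with guide 2 and 6 lower, with a median of -0.32. The higher count was 2 without control library 3. In the FGF list 3 of 7 tested genes were higher with guide 2 and 3 lower. Its ligands Fgf10 and Fgf23 were higher with guide 2, and the receptor Fgfr2 was lower, at -0.72. Grb10, an imprinted adaptor that restrains growth factor receptors, stood at 23.3, 23.1 and 24.7 FPKM in the guide 1 libraries, 8.43, 10 and 9.01 in the guide 2 libraries and 57.9, 53.7 and 55.3 in the controls. It was below the control in both clones and lowest with guide 2 (difference -1.28), as Igf2 was. Of 28 imprinted genes 10 had a row and 3 were tested. Gas6, which binds the receptors Axl, Tyro3 and Mertk, stood at 12.1, 12.9 and 12.1 FPKM in the guide 1 libraries, 57.6, 60.4 and 56.9 in the guide 2 libraries and 252, 249.97 and 197 in the controls and was higher with guide 2 by 2.15 (SE 0.08, limma adjusted p = 1.8e-08). In the caveola list 4 of 7 tested genes were higher with guide 2 and 1 lower. Cav1, the main caveolar coat protein, stood at 39.2, 34.8 and 38.2 FPKM with guide 1 and 80.3, 81.9 and 81.5 with guide 2 (difference 1.10). The 1 lower gene was Cavin2, a caveolar adaptor, at -0.91.

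Most interferon response and MHC class I genes that passed were higher with guide 2, beside 31.1% higher and 23.5% lower of all tested genes. Of 53 listed genes 25 had a row, and 14 of 19 tested genes were higher with guide 2 and 3 lower, with a median of 0.58 against 0.03 over all genes. Psmb8, a subunit of the immunoproteasome, stood at 1.1, 1.29 and 1.11 FPKM in the guide 1 libraries, 7.72, 7.15 and 7.66 in the guide 2 libraries and 13.9, 13.6 and 14.2 in the controls. Tap2, which carries peptides to MHC class I, stood at 2.83, 3.61 and 3.51 FPKM in the guide 1 libraries, 15.6, 16.6 and 14.9 in the guide 2 libraries and 17.4, 16.4 and 15.8 in the controls. Ifitm3, a membrane protein that restricts viral entry, stood at 146, 145 and 127 FPKM in the guide 1 libraries, 424, 388 and 359 in the guide 2 libraries and 518, 539.9 and 522 in the controls. In all 3 genes guide 1 was lowest and did not overlap guide 2, and the differences were 1.97 (SE 0.06, limma adjusted p = 3.2e-09), 1.95 (SE 0.08, limma adjusted p = 1.7e-08) and 1.48 (SE 0.07, limma adjusted p = 7e-08). Guide 2 overlapped the control for Tap2 and was below it for the others. The 3 lower members were Ifi47, an interferon-induced GTPase, at -1.06, B2m, the light chain of MHC class I, at -0.38, and Erap1, which trims peptides for MHC class I, at -0.30. Of 20 leukocyte markers 4 had a row, and their sum was 1.52 to 2.19 FPKM with guide 1 and 2.29 to 2.90 with guide 2, mostly from Cd68. The part of such cells in the result was not tested.

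A pair of GAAA runs with 2 bases between them, the core that interferon regulatory factors bind, was searched on both strands of the same windows. It was present in 9 of 17 tested genes of this list, in 171 of 4937 tested genes (3.46%) and in 3.44% of all windows. The list was made of interferon response and MHC class I genes, so its share follows from that choice. That share does not bear on the difference between the clones. Of genes at least 1 log2 unit higher with guide 2, 6 of 125 held it, and of those lower by as much, 4 of 137. Of the 9, 6 were higher with guide 2, 2 were lower and 1 did not pass. Bst2, a tethering factor of virus particles, and Igtp, also an interferon-induced GTPase, are shown because they had the largest differences of the 9, at 0.88 and 1.14, among those with a match before the start. Gbp2 and Stat2, at 0.55 and 0.47, have such a match too. Cxcl10, a chemokine, belongs to the cytokine list and is shown for its difference of 1.93. The windows are chr8:71537473-71537722 on the minus strand, chr11:58199306-58199555 on the plus strand and chr5:92348890-92349139 on the minus strand, again as the 250 bases before the start in RefSeq GRCm38.p6 with the match in capitals. Those of Bst2 are a pair that overlap and begin 130 and 124 bases before the start, and those of Igtp and Cxcl10 begin 34 and 213 bases before it.
Bst2: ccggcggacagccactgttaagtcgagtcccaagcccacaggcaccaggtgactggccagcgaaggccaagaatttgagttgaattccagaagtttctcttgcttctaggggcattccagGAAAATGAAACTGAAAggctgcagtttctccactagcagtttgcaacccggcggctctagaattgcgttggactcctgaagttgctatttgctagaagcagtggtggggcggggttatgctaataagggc
Igtp: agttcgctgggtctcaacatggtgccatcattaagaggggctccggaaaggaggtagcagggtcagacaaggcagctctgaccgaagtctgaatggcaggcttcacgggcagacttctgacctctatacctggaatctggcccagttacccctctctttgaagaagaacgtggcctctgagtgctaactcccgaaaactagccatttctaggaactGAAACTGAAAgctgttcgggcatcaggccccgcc
Cxcl10: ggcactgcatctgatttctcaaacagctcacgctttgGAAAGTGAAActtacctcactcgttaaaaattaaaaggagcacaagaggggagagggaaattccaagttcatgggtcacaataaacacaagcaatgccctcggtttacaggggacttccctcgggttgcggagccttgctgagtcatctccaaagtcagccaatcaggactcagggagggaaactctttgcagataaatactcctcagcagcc
B2m and Erap1 also hold the pair and were lower with guide 2, as was Tnfrsf1b, a TNF receptor of the cytokine list, at -0.72.

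Cytokine and NF-kB genes were split. Of these, 11 of 25 tested genes were higher with guide 2 and 10 lower, beside 31.1% and 23.5% of all tested genes. Cxcl10 stood at 1.97, 2.02 and 2.52 FPKM in the guide 1 libraries, 10.8, 11 and 11.3 in the guide 2 libraries and 2.28, 1.88 and 1.79 in the controls, high only with guide 2. Ccl2 stood at 13.2, 12.7 and 13.7 FPKM in the guide 1 libraries, 1.86, 2.13 and 1.69 in the guide 2 libraries and 0.563, 0.628 and 0.465 in the controls, and Tnfaip3, a feedback inhibitor of NF-kB, at 12, 13.3 and 14 FPKM in the guide 1 libraries, 2.4, 2.78 and 2.64 in the guide 2 libraries and 0.790, 1.04 and 1.21 in the controls. Both were highest with guide 1, with differences of -2.30 (SE 0.07, limma adjusted p = 6.8e-09) and -1.96 (SE 0.09, limma adjusted p = 4.4e-08). Casp1, the caspase that matures interleukin-1 cytokines, stood at 0.710, 0.755 and 0.904 FPKM in the guide 1 libraries, 6.08, 5.8 and 5.55 in the guide 2 libraries and 10.6, 11.1 and 9.25 in the controls and was lowest with guide 1 (difference 1.93). Of the prostaglandin synthesis genes 5 of 9 tested genes were higher with guide 2 and 0 lower, with Pla2g4a, the phospholipase that releases arachidonic acid, at 1.13 and Ptgs2, the inducible cyclooxygenase, at 0.48. The higher count was 3 without guide 2 library 1 or 2. The share of prostaglandin synthesis genes that passed was near the 54.6% of all tested genes.

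Immediate early, MAPK feedback and heat shock genes also differed between the clones, as did a mitochondrial ribosomal RNA. Of all tested genes 31.1% were higher with guide 2 and 23.5% lower. Of the immediate early genes 3 of 14 tested genes were higher with guide 2 and 8 lower, with a median of -0.29. Egr1, a zinc finger factor induced by serum, was higher with guide 2 by 1.04, and Maff, a small MAF factor, was lower, at -1.10. Of the MAPK ligands and feedback genes 6 of 16 tested genes were higher with guide 2 and 5 lower, with the phosphatases Dusp4 at -1.81 and Dusp7 at 0.81. Of the heat shock genes 5 of 10 tested genes were higher with guide 2 and 2 lower. The lower count was 1 without guide 1 library 1, 2 or 3 or without guide 2 library 2. Hspa1b, an inducible Hsp70, stood at 16.5, 14.8 and 17.7 FPKM in the guide 1 libraries, 57.1, 67.6 and 68.1 in the guide 2 libraries and 7.6, 6.94 and 9.08 in the controls, and its near-identical copy Hspa1a differed by 1.31, so reads may be divided between them. The mitochondrial ribosomal RNA mt-Rnr1, named after its values were seen, stood at 169.6, 238 and 153 FPKM in the guide 1 libraries, 91.2, 69.1 and 66.3 in the guide 2 libraries and 55.4, 83.5 and 64.4 in the controls, above guide 2 in each guide 1 library (difference -1.29). Whether these differences reflect handling or RNA quality was not tested, nor was their part in the other results.

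In the MYC, mitochondrial ribosome, mitosis and replication lists more genes were higher with guide 2 than lower, mostly by under 1 log2 unit, beside 31.1% higher and 23.5% lower of all tested genes. In the MYC and ribosome biogenesis list 13 of 22 tested genes were higher with guide 2 and 1 lower, with a median of 0.23. The exception was Mycl, and 2 were lower without control library 3. Rrp9, which helps process ribosomal RNA, stood at 12, 12.1 and 12.3 FPKM with guide 1 and 20.7, 17.9 and 19.3 with guide 2 (difference 0.63). In the mitochondrial ribosome 17 of 37 tested genes were higher with guide 2 and 4 lower. In the cytosolic ribosome 13 of 53 tested genes were higher with guide 2 and 2 lower, a smaller share in either direction than over all tested genes, and 38 did not pass. The highest was Rpsa, a protein of the small subunit, at 351, 347 and 352 FPKM with guide 1 and 667, 622 and 612 with guide 2 (difference 0.85). The lower count there was 0 without guide 1 library 1 or guide 2 library 2 or 3, 1 without guide 1 library 2 and 8 without guide 2 library 1. In the mitosis list 13 of 24 tested genes were higher with guide 2 and 1 lower, with Ect2, an exchange factor of cytokinesis, at 24.2, 21.1 and 24.8 FPKM with guide 1 and 42.6, 45.2 and 46.4 with guide 2 (difference 0.91). In the replication list 15 of 36 tested genes were higher with guide 2 and 5 lower, with Tyms, thymidylate synthase, at 0.85 and Rfc5, a clamp loader subunit, at 0.83. The list of D cyclins, CDK inhibitors and p53 targets went the other way, since 6 of 21 tested genes were higher with guide 2 and 10 lower. Pmaip1 and Bbc3, the pro-apoptotic genes Noxa and Puma, were both lower with guide 2. Pmaip1 stood at 27.4, 26.9 and 24.7 FPKM in the guide 1 libraries, 4.7, 5.6 and 5.11 in the guide 2 libraries and 3.14, 2.95 and 2.67 in the controls (difference -2.16) and Bbc3 differed by -1.06. Ccnd2, cyclin D2, stood at 61.5, 55.6 and 57.1 FPKM in the guide 1 libraries, 29.3, 28.9 and 31.5 in the guide 2 libraries and 64.9, 62.5 and 69.8 in the controls, lowest with guide 2 (difference -0.93).

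Metabolic and stress lists held genes of both directions, beside 31.1% higher and 23.5% lower of all tested genes. Of fatty acid synthesis genes 8 of 13 tested genes were higher with guide 2 and 3 lower, with a median of 0.25. The desaturases Scd1 and Scd2 were higher by 0.99 and 1.02, and Srebf1, their regulator, by 0.61. Of the cholesterol synthesis genes 6 of 23 tested genes were higher with guide 2 and 5 lower, with Mvk, mevalonate kinase, higher by 0.88. The lower count was 3 without guide 1 library 1 or guide 2 library 1, and both cholesterol shares were near those of all tested genes. In the glycolysis list 7 of 14 tested genes were higher with guide 2 and 4 lower, with a range from -1.72 to 1.82. Ldhb, a lactate dehydrogenase chain, stood at 9.42, 9.06 and 8.39 FPKM in the guide 1 libraries, 34.4, 34.4 and 33.8 in the guide 2 libraries and 40.6, 37.9 and 31.2 in the controls, low only with guide 1 (difference 1.82). Slc16a3, a lactate exporter, stood at 2.58, 2.41 and 2.77 FPKM with guide 1 and 0.0448, 0.0777 and 0.149 with guide 2, and was the lowest of the list. It reached the filter through guide 1 alone. In the ATF4 and unfolded protein list 15 of 22 tested genes were higher with guide 2 and 4 lower, with a median of 0.19 and Trib3, a pseudokinase target of ATF4, at 0.86. In the NRF2 and glutathione list 12 of 26 tested genes were higher with guide 2 and 9 lower, with Aldh3a1 and Gpx1, a glutathione peroxidase, higher by 2.46 and 1.09, and Osgin1, an oxidative stress gene, lower, at -1.80. In the lysosome and autophagy list 5 of 28 tested genes were higher with guide 2 and 11 lower, with Map1lc3a, an autophagosome protein, at 45.9, 41.3 and 45.7 FPKM with guide 1 and 14.5, 14.8 and 13.9 with guide 2 (difference -1.55) and Sqstm1, an autophagy receptor, at -0.78. Of 39 respiratory chain genes 9 were higher and 8 lower with guide 2, both smaller shares than over all tested genes.

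**Figure D3:**
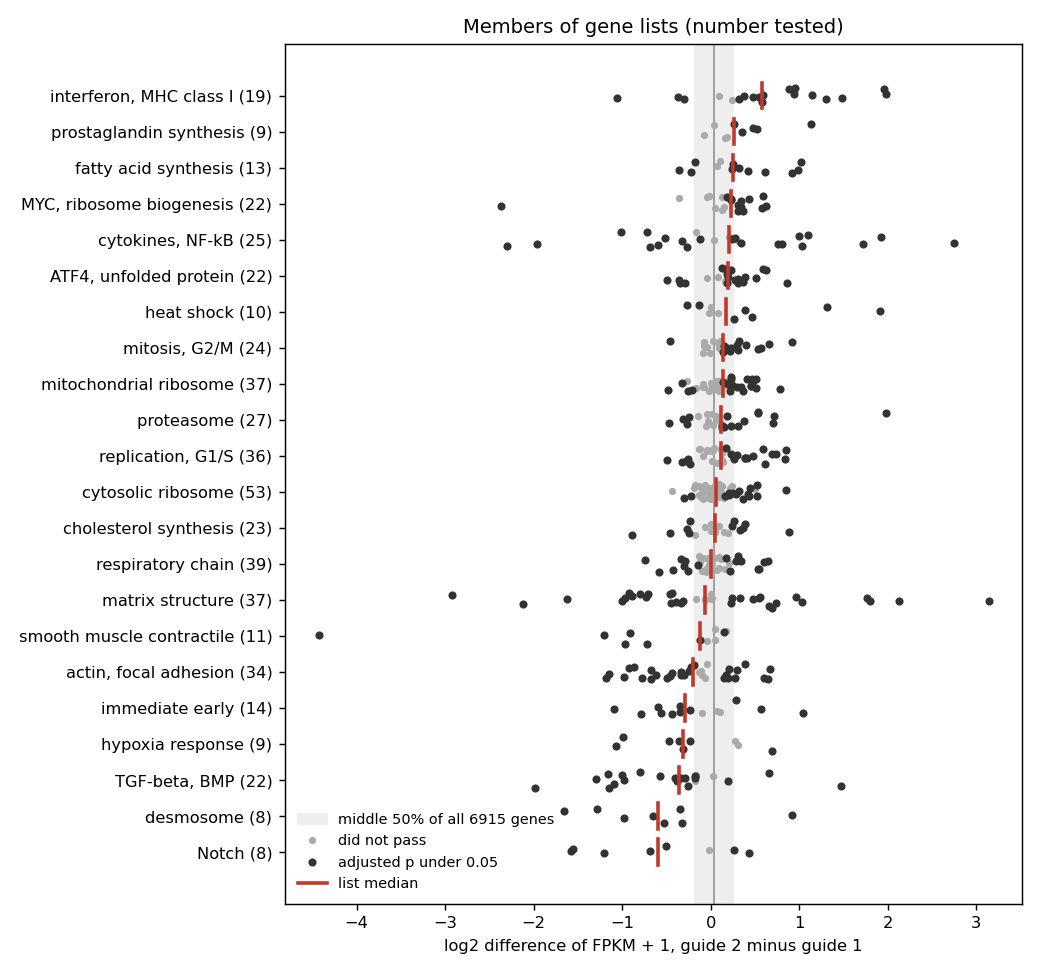
Differences between the clones (x axis, log2 units, guide 2 minus guide 1) for the tested members of 22 gene lists, 1 point a gene, dark where the adjusted p was under 0.05, with the list median in red, the median of all tested genes as a grey line and their middle 50% shaded. Interferon and MHC class I genes have the highest median at 0.58, and Notch and desmosome genes the lowest at -0.60 and -0.59.

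Some single regulators of tissue identity differed by over 1 log2 unit, and others by less. Among homeobox genes 5 of 21 tested genes were higher with guide 2 and 8 lower, so that 13 of 21 passed, near the 54.6% of all tested genes. Hoxa3, Hoxa4 and Hoxa7, genes of the Hoxa cluster, were higher with guide 2 by 0.78, 1.09 and 1.25. Hoxa7 stood at 1.97, 1.91 and 1.95 FPKM in the guide 1 libraries, 5.89, 6.05 and 6.04 in the guide 2 libraries and 6.67, 5.65 and 6.11 in the controls, and guide 2 overlapped the control. Pitx1, a factor of jaw and hindlimb, stood at 85.2, 84.1 and 90 FPKM in the guide 1 libraries, 28.1, 30.7 and 31.2 in the guide 2 libraries and 103, 98 and 104 in the controls and was lower with guide 2, at -1.50 (SE 0.05, limma adjusted p = 8.8e-09). Among Sox, T-box, forkhead and related factors 2 of 10 tested genes were higher with guide 2 and 6 lower, with Sox12 at -1.47, Ets1 at -0.92 and Tbx18 at 0.92, and 1 was higher without guide 2 library 3. Among guidance genes 5 of 18 tested genes were higher with guide 2 and 8 lower. The secreted cues Slit2, Sema3a and Ntn1 were higher with guide 2 by 1.78, 1.17 and 1.03, and Ntn4, another netrin, was lower, at -1.23.

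The median difference varied between chromosomes. By symbol, 6605 of the 6915 genes (95.5%) matched RefSeq GRCm38.p6, and 6603 lay on chromosomes 1 to 19 or X. Because the sources used here do not give the build of the deposited files, only chromosome and gene order were taken from that annotation. On chromosome 3 the median was 0.22, with 51.5% higher and 15.6% lower with guide 2. On chromosome 5 it was 0.17, with 51.2% higher and 16% lower. Chromosomes 15 and 8 had medians of 0.16 and 0.16. On chromosome X the median was -0.14, with 14.4% higher and 42% lower, and on chromosome 19 it was -0.09, with 16.7% higher and 37.8% lower. Over all tested genes the shares were 31.1% and 23.5%. The libraries kept the same side, since the median deviation from the mean of the 6 libraries was -0.120 to -0.094 in guide 1 and 0.077 to 0.130 in guide 2 for chromosome 3, and 0.045 to 0.095 and -0.095 to -0.051 for chromosome X. These 6 chromosomes stayed on the same side of the all-gene median in all 18 alternatives.

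**Figure D4:**
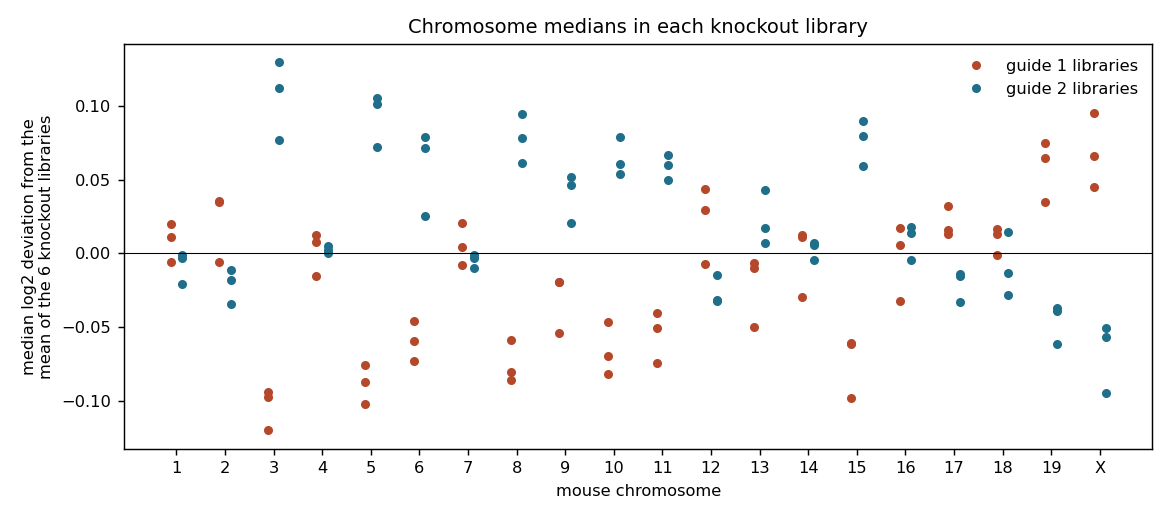
Median deviation of each knockout library from the mean of the 6 knockout libraries (y axis, log2 units) for the tested genes of each mouse chromosome (x axis), with 3 points for each clone. The clones separate on chromosomes 3, 5, 8, 15, 19 and X, among others, and overlap on chromosomes such as 16 and 18.

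It also varied along chromosomes, between runs of neighbouring genes. Over 6003 overlapping runs of 31 tested genes the median ranged from -0.47 to 0.60. The highest run, from Polr2a to Xaf1 on chromosome 11, had 26 genes higher with guide 2 and 2 lower, with median differences from the control of 0.22 for guide 1 and 0.83 for guide 2. A run from Sema3b to Smarcc1 on chromosome 9 had 28 higher and 1 lower (median 0.57, and 0.13 and 0.67 from the control). A run from Galnt11 to Babam2 on chromosome 5 had 22 higher and 3 lower (median 0.51), and there both clones were below the control, at -0.75 and -0.27. In the lowest run, from 5530601H04Rik to Iqsec2 on chromosome X, 4 were higher and 21 lower (median -0.47, and -0.22 and -0.57 from the control). A run from Rin1 to Cdc42bpg on chromosome 19 had 1 higher and 20 lower (median -0.30), with guide 1 at 0.59 and guide 2 at 0.08 from the control. On chromosome 1 the medians of runs ranged from -0.09 to 0.09. Xaf1, an interferon-induced gene at the end of the highest run, differed by 1.30, and Rpsa, Gpx1 and Uqcrc1, a respiratory chain subunit at 0.65, are genes of chromosome 9.

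**Figure D5:**
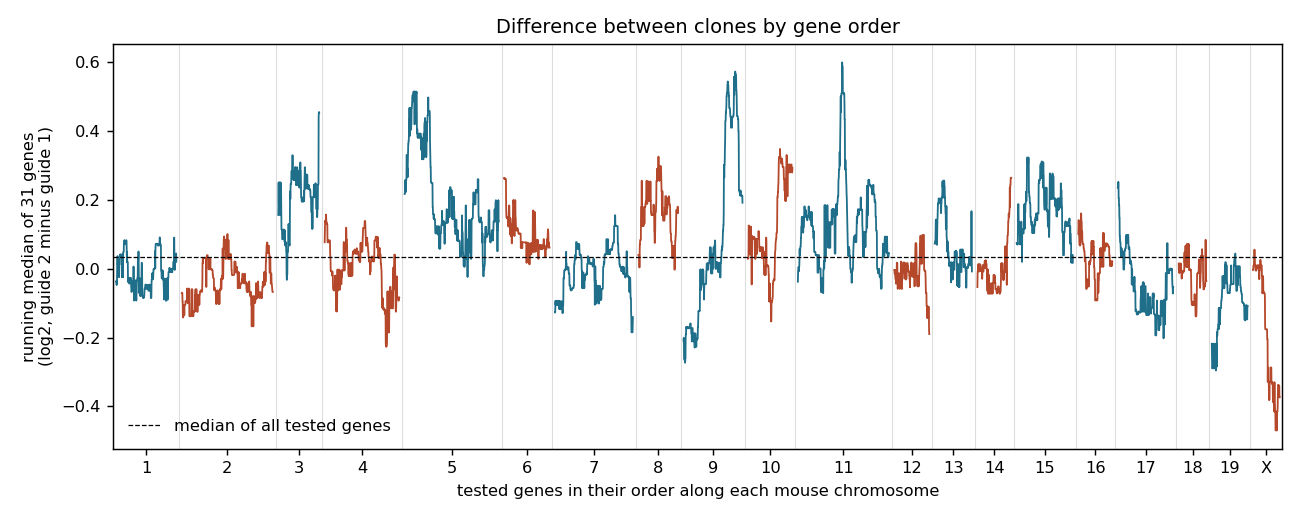
Running median of the difference between the clones over 31 neighbouring tested genes (y axis, log2 units, guide 2 minus guide 1) in gene order along chromosomes 1 to 19 and X (x axis), with the median of all tested genes as a dashed line. Peaks of 0.60, 0.57 and 0.51 stand on chromosomes 11, 9 and 5, and the lowest value, -0.47, lies on chromosome X.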

How the data were processed

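Polyadenylated RNA of 9 libraries was sequenced paired-end from a stranded kit, per the labels' protocols. Read trimming, alignment and assembly tools named in the submitters' processing notes are cutadapt, HISAT2 and StringTie, beside FastQC. Tool versions, genome build and annotation were not given in the sources used here. Per the file headers, the authors deposited FPKM values by gene and library. No read total is kept, so the absolute depth, counting error and floors are unknown. The ratios of the lowest values gave read totals of 0.773 to 1.21 relative to guide 1 library 1, resting on 14 to 27 of 547 to 796 ratios a library.

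The 174 rows that share 62 symbols were left out, and 8531 uniquely named genes under a mean of 1 FPKM over the 6 knockout libraries were not tested. Values were analysed as log2(FPKM + 1) with limma 3.58.1 in R 4.3.3, with all 9 libraries in the fit, a prior variance that follows the mean level, and no replicate block. P-values are two-sided with Benjamini-Hochberg adjustment over the 6915 genes, at a threshold of 0.05. On simulated data with 200 of 6915 genes shifted, 84.5%, 98.5% and 99.5% of differences of 0.5, 1 and 2 log2 units were recovered. Of the calls, 3.98%, 4.83% and 4.78% were false. The simulated noise was normal and independent between genes and libraries, so these rates do not carry over to the calls reported here.

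The genes, lists and tests were chosen with earlier results of these data known. Named genes passed the test, did not overlap between the clones and reached 5 FPKM in the higher clone. The text names the 15 largest in each direction, the 6 largest with 100 FPKM or more, and up to 4 members of a described list. Some genes that this rule names are not reported here. Actg1, B2m, Bst2, Cnn2, Col1a2, Erap1, Fhl2, Gbp2, Ifi47, Igtp, Lima1, mt-Rnr1, Slc16a3, Srf, Stat2, Tnfrsf1b and Vcl were added after their values were seen. Krt7, Itgb4 and Myl9 were also added after their values were seen. Promoter windows are from RefSeq GRCm38.p6. The alternatives changed the scaling (quantile normalization, or trimmed means that drop 30% at either end), the pseudocount (0.1), the filter (none, or 5 FPKM), the prior (constant), the rows (repeated symbols kept) and the design (a replicate block, the 6 knockout libraries alone, or each library left out). The other columns of per-sample values numbered 0.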

Additional observations from a re-analysis of the deposited data

How the results depend on the processing

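The number of genes that passed between the clones was 3371 to 3867 when each library was left out in turn, with 1882 to 2204 higher and 1428 to 1663 lower with guide 2. Genes differing by 1 log2 unit or more numbered 148 to 172 higher and 176 to 206 lower. Under a filter of 5 FPKM, which leaves 4578 genes, they numbered 83 higher and 110 lower. All other alternatives kept these 5 counts within 1.5 times of the reported ones, including 3742 genes with a pseudocount of 0.1 and 4152 of 15446 genes without a filter. The deviations of same-numbered libraries correlated at 0.24, 0.02 and 0.21 across genes and those of other pairs at -0.23 to 0.04. Guide 2 library 2 did not correlate best with its own number, and the labels name nothing shared, so the numbers were not taken as pairs. A fit with the replicate block passed 3778 genes, 2150 higher and 1628 lower. The named genes gave 3664 values under 18 alternatives, of which 0 reversed and 7 no longer passed, all of them for Ptgr1 and H4c9. Of 1872 counts of list members, 1794 stayed within 1.5 times. Depth in reads is unknown.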

Other observations

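Further gene families held genes of both directions. Of 93 tested solute carriers 32 were higher with guide 2 and 24 lower, near the 31.1% and 23.5% of all tested genes. Slc7a2, a cationic amino acid transporter, and Slc1a3, a glutamate transporter, were higher by 1.81 and 1.55 log2 units. By 1 log2 unit or more, 2 were higher and 6 lower, among them the lactate exporter Slc16a3 at -1.72 and Slc25a23, a mitochondrial carrier, at -1.17. Slc16a3 reached the filter through guide 1 alone. Of 149 Zfp zinc finger genes 21 were higher and 29 lower, a smaller share in either direction than over all tested genes. Without guide 2 library 3, 13 were higher. Zfp52 was higher by 1.38, and Zfp444 was at -0.82. Of 27 proteasome genes 11 were higher and 4 lower, led by the immunoproteasome gene Psmb8 and followed by Psmc2 and Psmb1, subunits of the regulatory and core particles, at 0.72 and 0.70. Of 15 sphingolipid and phospholipid genes 4 were higher and 8 lower, with Plpp3, a lipid phosphatase, at -1.21 and Plin2, a lipid droplet coat protein, at -0.78.

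Among markers of other cell types, 2 of 14 salivary gland genes were tested. Aqp5 stood at 51.6, 52.9 and 48.7 FPKM with guide 1 and at 181, 171 and 177 with guide 2, without overlap. Slc12a2, a chloride cotransporter of secretory cells, was higher with guide 2 by 0.51. Krt7, a keratin of the same list that was too low to be tested, went the other way. It stood at 1.45, 1.11 and 1.08 FPKM with guide 1 and 0.0718, 0 and 0.0372 with guide 2. Ltf, lactoferrin, was listed at 0 in the 6 knockout libraries. Of 14 endothelial genes 1 was tested and did not pass, and none of 14 skeletal muscle genes reached the filter.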
